A study of Mus musculus with 16 samples.

Results

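Prg4, Cilp and Cilp2 are 3 genes for secreted proteins of cartilage and other connective tissue, and they were described here in the intervertebral disc of mice with and without Sox9. The genes were taken by symbol, and where a gene has several probe sets the one with the highest mean over the 16 arrays stands for it. Each of the 3 has 1 probe set, so that 3 probe sets of 22206 tested, or 3 of 19505 genes with a symbol, are described. RNA came from 8 female mice of 3 to 4 months, 4 Sox9cKO (AcanCreERT2Sox9fl/fl) and 4 Sox9CTR (Sox9fl/fl). The nucleus pulposus (NP), the gel-like core of the disc, and the annulus fibrosus (AF), the fibrous ring around it, were dissected from lumbar and caudal discs and pooled per animal, which gave 4 arrays each for NP cKO, NP CTR, AF cKO and AF CTR. Both genotypes carry loxP-flanked Sox9. The cKO mice also carry a tamoxifen-inducible Cre under the control of Acan, the aggrecan gene, so that recombination is directed to cells that express Acan. They were given tamoxifen on 2 days, and tissue was taken on day 5 after the first injection. Whether the controls were injected is not given in the labels, so drug and genotype cannot be told apart.

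Prg4 encodes lubricin, a mucin-like glycoprotein that coats sliding surfaces and lets them glide under load. It is known from the superficial cells of articular cartilage and from the synovial lining. Cilp encodes cartilage intermediate layer protein, a matrix glycoprotein named for the middle layer of articular cartilage, which can bind TGF-beta and dampen its signal. Cilp2 encodes its close relative, a cartilage matrix protein whose function is less well known. SOX9 is the transcription factor that directs the cartilage gene programme.

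The sequence just before the gene start is shown for both Cilp genes, as relatives that both differed between the tissues. RefSeq sequences of build GRCm38.p6 were matched by symbol for 2 of the 3 genes, Cilp and Cilp2. For Cilp the window is chr9:65264930-65265179 on the plus strand, and for Cilp2 it is chr8:69887393-69887642 on the minus strand, in each case the 250 bases before the start, 5′ to 3′ on the strand of the gene. Capitals mark every match, on either strand, to ACAAT (the core letters bound by SOX factors), TATAA (the core of a TATA box) and GGGCGG (a GC box), and the matches do not overlap.
Cilp: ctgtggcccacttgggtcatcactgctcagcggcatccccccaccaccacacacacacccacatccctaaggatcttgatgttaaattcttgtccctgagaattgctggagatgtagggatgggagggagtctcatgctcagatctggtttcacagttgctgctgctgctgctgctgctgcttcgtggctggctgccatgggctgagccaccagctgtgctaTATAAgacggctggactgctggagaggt
Cilp2: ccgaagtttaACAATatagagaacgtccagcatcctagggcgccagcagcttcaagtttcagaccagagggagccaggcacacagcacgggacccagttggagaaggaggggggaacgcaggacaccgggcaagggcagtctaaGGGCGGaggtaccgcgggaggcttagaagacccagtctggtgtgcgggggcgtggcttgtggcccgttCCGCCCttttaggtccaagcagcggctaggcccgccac
Cilp holds TATAA with its first base 28 bases before the start, and neither of the other motifs. Cilp2 holds no TATAA, but ACAAT 240 bases before the start and GGGCGG at 106 and, on the other strand, at 38 bases before the start. Among 27025 promoter windows of this length, 28.3% hold ACAAT, 23.5% hold TATAA and 32.9% hold GGGCGG on either strand. The windows have a GC content of 56.0% (Cilp) and 62.4% (Cilp2).

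The values are log2 signals normalized by the authors. The median over all probe sets was 6.66 to 6.89 across the arrays, and replicates correlated at 0.963 to 0.983. The median of 5222 negative control probe sets per array, 6.14 to 6.59, served as a measure of background. Sox9 was 9.69, 9.55, 10.12 and 9.65 in NP cKO replicates 1 to 4, against 16.19, 16.14, 16.79 and 15.95 in NP CTR. In the AF it was 12.10, 11.43, 12.99 and 12.44 in cKO, against 17.25, 17.45, 16.59 and 16.39 in CTR, so each array fits its genotype label. The labels do not say whether this probe set lies in the deleted exons. The tissue labels were checked with marker genes. The mean signal of 10 notochordal and NP markers was 12.21 to 12.55 in NP arrays, against 11.08 to 11.86 in AF arrays, and that of 10 tendon and outer AF markers was 7.57 to 9.29 in NP arrays, against 11.56 to 13.34 in AF arrays. The precision is limited by the number of arrays, and an error after a mean is the SD (n = 4).

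The Prg4 signal was far higher in the ring than in the core of the disc. Prg4 had log2 signals of 7.66, 7.34, 8.63 and 7.98 in NP CTR replicates 1 to 4, against 15.66, 17.41, 16.77 and 14.70 in AF CTR replicates 1 to 4. The groups did not overlap. The means were 7.90 ± 0.55 in NP CTR and 16.13 ± 1.20 in AF CTR, a log2 difference of -8.23 (SE 0.99), which is 300.1-fold, and it passed the test across all probe sets (limma, Benjamini-Hochberg adjusted p = 1.0e-05). In AF CTR the Prg4 mean lay above 99.2% of all probe set means, and in NP CTR above 66.8%. In NP CTR arrays Prg4 exceeded 65.6% to 88.0% of the negative control probe sets, and in AF CTR arrays 98.5% to 99.4%. The NP CTR values of Prg4 all lay under 10.30, the 95th percentile of the negative controls over all arrays. The fold is thus relative to a dim NP signal.

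Both Cilp genes showed the same contrast between the tissues. Cilp had log2 signals of 5.86, 5.53, 7.87 and 5.89 in NP CTR replicates 1 to 4, against 12.56, 13.90, 12.44 and 11.81 in AF CTR. In 3 of the 4 NP CTR arrays it lay under the negative control median of its own array, and only replicate 3 stood above. The means were 6.29 ± 1.07 in NP CTR and 12.68 ± 0.88 in AF CTR, a log2 difference of -6.39 (SE 1.09, limma adjusted p = 3.7e-04). With every value under the background raised to the negative control median of its array, a setting chosen after seeing the data, the difference was -5.79 (limma adjusted p = 0.0035). Cilp2 had 7.40, 7.09, 6.64 and 7.11 in NP CTR, against 11.19, 12.61, 12.55 and 11.22 in AF CTR. Its means were 7.06 ± 0.32 in NP CTR and 11.89 ± 0.79 in AF CTR, with a difference of -4.83 (SE 0.38, limma adjusted p = 7.9e-08). The NP signals of Cilp2 are dim, above only 55.0% to 67.2% of the negative controls in the CTR arrays.

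All 3 genes were thus lower in NP than in AF of controls, with no overlap between the groups. Of all 22206 probe sets, 20.1% differed between these groups at an adjusted p under 0.05, with 10.1% lower in NP (2211 higher and 2251 lower, against 3293 and 1769 with each array centred on its median), and in 11.2% the 4 NP values lay below the 4 AF values. Counted from the most negative difference, Prg4 was at rank 19 and Cilp2 at rank 85 of 22206, and no rank is given for Cilp, whose NP CTR values lie mostly under background. In bulk tissue, fewer cells that express a gene and less RNA per cell cannot be told apart. NP and AF with the same replicate number come from 1 animal, and with the animal as a block the differences of all 3 genes passed the test as well.

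**Figure D1:**
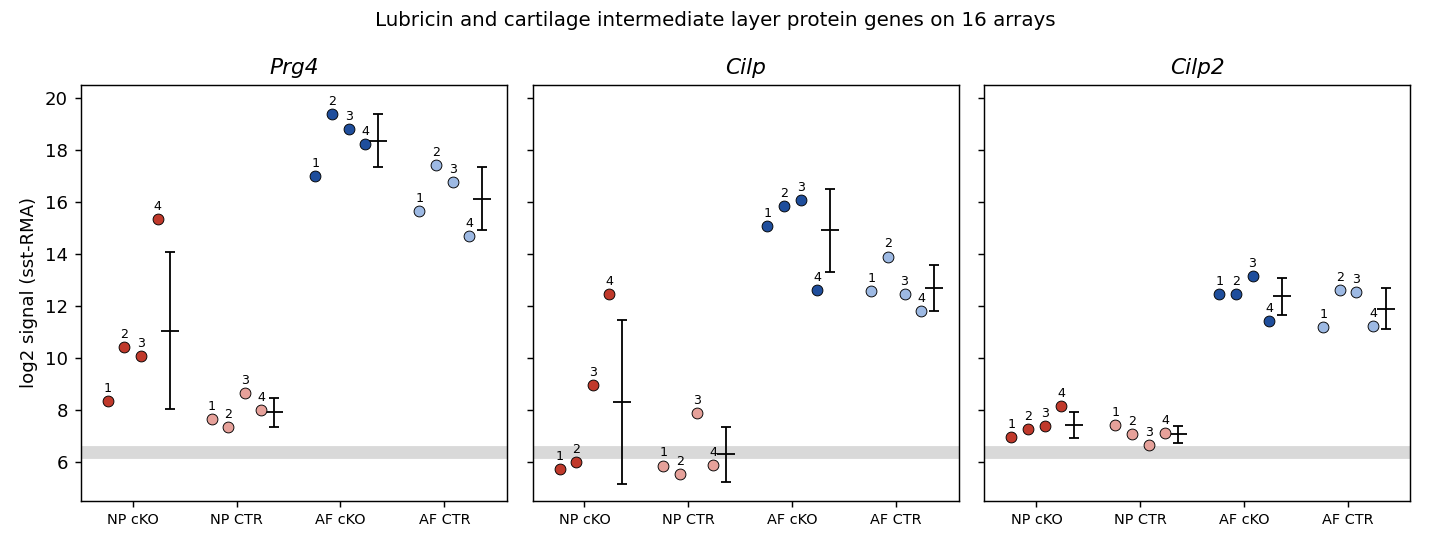
Log2 signal of Prg4, Cilp and Cilp2 on the 16 arrays, with 1 point per array numbered by replicate, and the mean with its SD to the right of each group (n = 4). The grey band spans the negative control medians, 6.14 to 6.59. All AF points lie above 11, and NP cKO replicate 4 is the highest NP array for each gene.

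The same tissue contrast was present after Sox9 deletion. Prg4 was 8.35, 10.42, 10.06 and 15.35 in NP cKO replicates 1 to 4, against 16.99, 19.37, 18.82 and 18.22 in AF cKO. NP cKO replicate 4 stood 4.93 above the next NP cKO array, yet below every AF cKO array. The difference was -7.30 (SE 0.99, limma adjusted p = 4.7e-05), and -8.74 without NP cKO replicate 4. Cilp was 5.73, 5.99, 8.96 and 12.47 in NP cKO, against 15.09, 15.85, 16.09 and 12.61 in AF cKO. It lay under the negative control median in NP cKO replicates 1 and 2, and replicate 4 came within 0.14 of the lowest AF cKO array. The Cilp difference was -6.62 (SE 1.09, limma adjusted p = 3.0e-04), and -6.32 with values under background raised to the negative control median. It was -8.02 without NP cKO replicate 4, which leaves 2 of 3 NP cKO arrays under background. Cilp2 was 6.96, 7.26, 7.38 and 8.13 in NP cKO, against 12.44, 12.47, 13.16 and 11.41 in AF cKO, a difference of -4.94 (SE 0.38, limma adjusted p = 8.7e-08). All 3 were lower in NP cKO without overlap, and all 3 passed the test. Of all probe sets, 25.9% passed in this comparison, 12.6% were called lower in NP, and 12.5% were lower in NP without overlap.

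The comparison of cKO with CTR in the NP asks how these genes stand within days of Sox9 loss in the core of the disc. None of the 3 passed the test over all probe sets. Prg4 averaged 11.05 ± 3.01 in NP cKO and 7.90 ± 0.55 in NP CTR, a difference of 3.14 (SE 0.99, 95% interval 1.07 to 5.21, limma unadjusted p = 0.005, adjusted p = 0.604). By size this was the 3rd highest estimate of all probe sets. The lowest NP cKO value, 8.35 in replicate 1, lay under the highest NP CTR value, 8.63 in replicate 3, so the groups overlap. Without NP cKO replicate 4 the Prg4 difference was 1.71 (limma adjusted p = 0.899). Cilp averaged 8.29 ± 3.15 in NP cKO and 6.29 ± 1.07 in NP CTR, a difference of 2.0 (95% interval -0.27 to 4.28, limma adjusted p = 1), which was 0.61 without that array. Cilp2 averaged 7.43 ± 0.50 in NP cKO and 7.06 ± 0.32 in NP CTR, a difference of 0.37 (95% interval -0.42 to 1.16, limma adjusted p = 1), which was 0.14 without it.

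Calls were rare in this comparison, with 0.122% of probe sets past the adjusted threshold, all of them lower in cKO. The labels name looser thresholds, an unadjusted p below 0.05 with a change of 1.75-fold or more. By these Prg4 passed and both Cilp genes did not, where 0.333% of probe sets passed as higher. With array weights Cilp passed them too (difference 2.7, limma unadjusted p = 0.0184), but not with the 8 NP arrays alone (limma unadjusted p = 0.104). An unadjusted p under 0.05 alone was found for 4.58% of probe sets. For 2.93% of probe sets the NP cKO and NP CTR values did not overlap, and none of the 3 genes was among them.

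NP cKO replicate 4 stood apart in this group. Of all 22206 probe sets, ranked by how far that array lay above the highest of the other 3 NP cKO arrays, Prg4 was at rank 8 with 4.93, Cilp at rank 23 with 3.51 and Cilp2 at rank 276 with 0.75. The SD within NP cKO was the 12th highest of all probe sets for Prg4 and the 10th highest for Cilp, and at rank 3762 for Cilp2. Some lists with higher signal in the ring stood high in that array and others did not. The mean of the 10 tendon and outer AF markers was 9.29 in NP cKO replicate 4, and 7.80, 7.73 and 8.46 in replicates 1 to 3, against 7.57 to 8.20 in NP CTR. For 4 of these 10 markers NP cKO replicate 4 was the highest NP array. That count was 6 of 12 for genes of the superficial zone and lubrication. It was 3 of 8 for synovial markers and 0 of 10 for notochordal and NP markers. The share over all probe sets is not given here. The mean of 14 cartilage matrix genes was 9.40 in replicate 4, and 8.14, 8.01 and 8.36 in replicates 1 to 3, against 8.64 to 8.87 in NP CTR. The mean of 10 notochordal and NP markers was 12.21 in replicate 4, and 12.29 to 12.38 in the other NP cKO arrays, against 12.39 to 12.55 in NP CTR. The mean of 8 markers of the synovial lining, the other known source of lubricin, was 10.40 to 11.07 in NP cKO, with replicate 4 the highest, against 10.40 to 10.92 in NP CTR. Between the control tissues the synovial list was not lower in NP (median 0.35, with 6 of 8 higher in NP by mean). Further lists that did have lower medians in NP than in AF were not high in NP cKO replicate 4. The mean of 7 hypertrophic cartilage markers was 6.60 there and 6.53 to 6.73 in the other NP cKO arrays, against 6.65 to 6.89 in NP CTR. The mean of 11 osteoclast and bone markers was 5.60 there and 5.55 to 5.72 in the other NP cKO arrays, against 5.58 to 5.66 in NP CTR. The mean of 7 fibroblast markers was 5.23 there and 5.06 to 5.30 in the other NP cKO arrays, against 4.96 to 5.16 in NP CTR. These means lie near or under the negative control median of replicate 4, 6.58. Only 2 of 7 hypertrophic, 1 of 11 osteoclast and bone, and 1 of 7 fibroblast markers lay above it there. A modest excess of such signal could thus go unseen. The part of these markers in the NP values of Prg4 and Cilp was not tested.

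**Figure D2:**
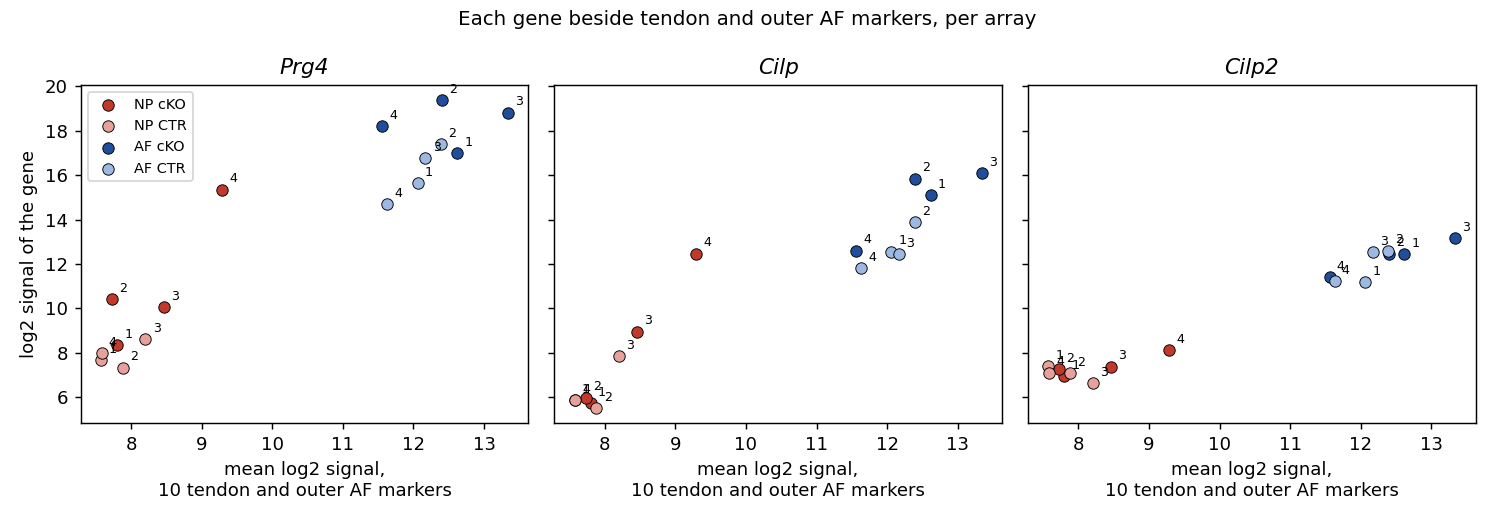
Log2 signal of Prg4, Cilp and Cilp2 (y axis) against the mean log2 signal of 10 tendon and outer AF markers (x axis), with 1 point per array numbered by replicate. NP cKO replicate 4, at 9.29 on the x axis, lies between the other NP arrays, at 7.57 to 8.46, and the AF arrays, at 11.56 to 13.34.

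In the AF the same comparison also gave higher means in cKO for all 3 genes, and none passed the test. Prg4 averaged 18.35 ± 1.02 in AF cKO and 16.13 ± 1.20 in AF CTR, a difference of 2.22 (SE 0.99, 95% interval 0.15 to 4.29, limma unadjusted p = 0.037, adjusted p = 0.444). AF cKO replicate 1, at 16.99, lay under AF CTR replicate 2, at 17.41, and the other 3 AF cKO arrays lay above all AF CTR arrays. AF cKO replicate 2, at 19.37, is near the highest value of the arrays, 19.93. Cilp averaged 14.91 ± 1.59 in AF cKO and 12.68 ± 0.88 in AF CTR, a difference of 2.23 (SE 1.09, 95% interval -0.04 to 4.51, limma unadjusted p = 0.054, adjusted p = 0.473). Its overlap came from AF cKO replicate 4, at 12.61, which lay below AF CTR replicate 2, at 13.90. Cilp2 averaged 12.37 ± 0.72 in AF cKO and 11.89 ± 0.79 in AF CTR, a difference of 0.48 (SE 0.38, 95% interval -0.31 to 1.27, limma adjusted p = 0.667), and the groups overlapped widely.

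In this comparison 0.0991% of probe sets passed the adjusted threshold. At the thresholds of the labels Prg4 passed and both Cilp genes did not, where 2.05% of probe sets passed as higher. This split of Prg4 and Cilp depended on the spread shared by all groups. With the 8 AF arrays alone both passed, Prg4 with SE 0.59 (limma unadjusted p = 0.00294) and Cilp with SE 0.68 (limma unadjusted p = 0.00656). With array weights Cilp passed (limma unadjusted p = 0.0384) and Prg4 did not (limma unadjusted p = 0.0511). Neither gene passed the adjusted threshold in these fits. The groups did not overlap for 4.33% of probe sets, with none of the 3 genes among them. By size the Cilp estimate was the 46th highest and that of Prg4 the 50th highest of all probe sets, while Cilp2 was at rank 1708.

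Most marker lists had higher means in AF cKO than in AF CTR, with no member past the test. The hypertrophic cartilage list (11.13 in AF cKO, 11.29 in AF CTR) and the notochordal and NP list (11.56 and 11.63) did not. The mean of 12 skeletal muscle markers was 7.18, 10.38, 6.74 and 9.88 in AF cKO replicates 1 to 4, against 6.62 to 7.65 in AF CTR, with all 12 higher by mean in cKO (46.4% of all probe sets were). The mean of 10 neutrophil and marrow markers was 9.08 to 12.93 in AF cKO, against 6.07 to 11.25 in AF CTR, with all 10 higher by mean in cKO. The fibroblast list was at 7.39 to 8.82 in AF cKO, against 6.40 to 7.90 in AF CTR, with 6 of 7 members higher by mean. The tendon and outer AF list was at 11.56 to 13.34 in AF cKO, against 11.63 to 12.39 in AF CTR, with 8 of 10 higher by mean, and the synovial list was at 10.47 to 11.24 in AF cKO, against 10.05 to 10.71 in AF CTR, with 5 of 8 higher by mean.

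The next settings, chosen after seeing the data, left out arrays that stand high for such markers. Without AF cKO replicates 2 and 4, which have the highest muscle signal, the differences were 1.77 for Prg4 and 2.91 for Cilp, and 0.91 for Cilp2. Without AF cKO replicate 3 and AF CTR replicate 1, whose mean of 11 osteoclast and bone markers (12.09 and 10.79) is the highest of each group, they were 1.90 for Prg4 and 1.80 for Cilp, and -0.02 for Cilp2. Without any 1 AF array the Cilp2 estimate ranged from 0.22 (without AF cKO replicate 3) to 0.80 (without AF cKO replicate 4), so it moved with several arrays, and the part of the marker signals in the AF values was not tested.

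The order of the AF arrays by these genes was partly that of their tendon and outer AF markers. AF CTR replicate 2 was the highest control for each of the 3 genes and for the marker list, at 12.39, and replicate 4 was the lowest control for Prg4, Cilp and the list, at 11.63. AF cKO replicate 3 was the highest cKO array for Cilp, Cilp2 and the list, at 13.34, and replicate 4 the lowest for these, at 11.56 on the list. Other positions differed. In CTR, Cilp2 was lowest in replicate 1, and in cKO replicate 1 was above replicate 2 on the list but below it for Cilp and Cilp2. Prg4 in cKO had replicate 2 highest and replicate 1 lowest.

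The change with genotype was not shown to differ between the tissues. The NP change minus the AF change was 0.92 for Prg4 (95% interval -2.0 to 3.85, limma adjusted p = 0.898), -0.23 for Cilp (-3.45 to 2.99, limma adjusted p = 0.982) and -0.11 for Cilp2 (-1.22 to 1.01, limma adjusted p = 0.974). No probe set passed this test (0% of 22206), 6.74% had an unadjusted p under 0.05, and none of the 3 genes did. The sign for Prg4 rests on NP cKO replicate 4, since the value without it was -0.51. The intervals are wide, so that sizeable differences between the tissues in either direction remain within them.

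**Figure D3:**
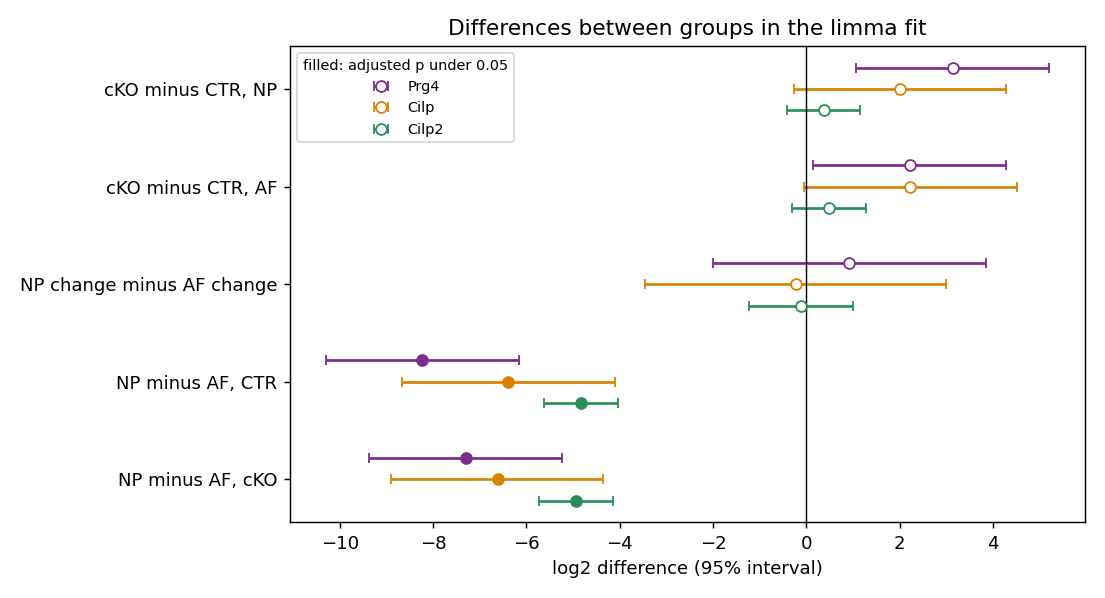
Log2 differences of Prg4, Cilp and Cilp2 with 95% intervals in the limma fit, for 5 comparisons. Filled points passed at an adjusted p under 0.05. The 6 tissue differences are filled, and the 9 genotype estimates are open, with Prg4 at 3.14 in the NP and 2.22 in the AF.

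**Figure D4:**
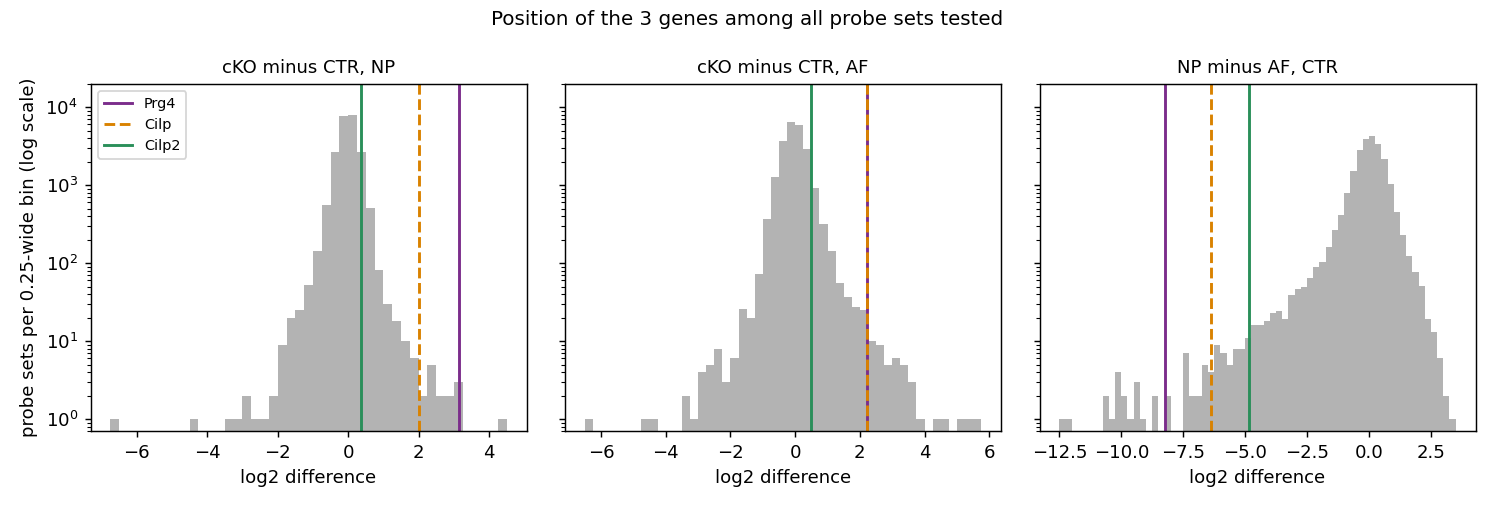
Histograms of the log2 difference of all 22206 probe sets (y axis, number per bin, log scale), with lines at Prg4, Cilp and Cilp2. In controls the 3 lines lie in the low tail of NP minus AF, at -8.23, -6.39 and -4.83. In cKO minus CTR, Prg4 and Cilp lie in the high tail of both tissues, and Cilp2 is at 0.37 in the NP and 0.48 in the AF.

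Whether the 3 genes changed by unequal amounts was tested with the difference of 2 genes within each array, over 3 pairs in each tissue, so 6 tests. In exact two-sided permutation tests of the genotype labels, where 4 against 4 arrays allow no p under 0.0286, no pair passed. The change of Prg4 exceeded that of Cilp2 by 2.77 in the NP and by 1.74 in the AF, each with an exact p of 0.0571 (adjusted p = 0.171). The change of Cilp exceeded that of Cilp2 by 1.63 in the NP (exact p = 0.229, adjusted p = 0.274) and by 1.75 in the AF (exact p = 0.0857, adjusted p = 0.171). Prg4 and Cilp differed by 1.14 in the NP (exact p = 0.171, adjusted p = 0.257) and by -0.01 in the AF (exact p = 1).

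Ordered by mean, each of the 3 genes was lowest in NP CTR, followed by NP cKO, AF CTR and AF cKO. The groups of each genotype step overlapped and none of these steps passed the test. For Prg4 and Cilp the step from NP cKO to AF CTR was crossed by 1 array, NP cKO replicate 4. That array (15.35 for Prg4, 12.47 for Cilp) lay above AF CTR replicate 4 (14.70 and 11.81). For Cilp it also lay above AF CTR replicate 3, at 12.44. For Cilp2 these groups did not overlap, at 6.96 to 8.13 in NP cKO and 11.19 to 12.61 in AF CTR.

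The genes with the most similar pattern were found by Pearson's correlation with 9910 genes above background, given as a description. Over the 16 arrays, which fall into 2 tissues and share animals, the 5 genes most like Prg4 were Igfbp7, a secreted protein that binds growth factors (r = 0.99), Sod3, the extracellular superoxide dismutase, Axl, a receptor tyrosine kinase, Sulf1, which trims heparan sulfate, and Tnfrsf21, a death receptor (r = 0.98 each). Cilp was most like Slc29a1, a nucleoside transporter, Sod3, Dcn, the small proteoglycan decorin of fibrous tissue, Abi3bp, a matrix protein, and Jam2, a junction protein (r = 0.97 each). Cilp2 was most like Fzd8, a Wnt receptor, Meox2, a homeobox factor, Dpysl3, a regulator of the cytoskeleton, Tent5a, a poly(A) polymerase, and Ptgis, the prostacyclin synthase (r = 0.99 each). Of these genes Sod3 alone is shared, by Prg4 and Cilp. These correlations include the step between NP and AF. In controls the log2 difference of NP minus AF was -9.30 for Sod3, -4.62 for Igfbp7, -10.17 for Dcn and -6.41 for Ptgis.

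The deviations from the 4 group means remove that step. For Prg4 the highest correlations of deviations were with Sod3, Runx1, Adamts6 and Ramp2 (r = 0.94 each) and Hoxc12 (r = 0.93). For Cilp they were with Dcn (r = 0.92), and with Sod3, Abi3bp and the proteoglycan gene Vcan (r = 0.89 each) and the lectin gene Clec3a (r = 0.88). NP cKO replicate 4 carries much of this, as without it these genes had r from 0.77 to 0.86 with Prg4 and ranked 49 to 261, and r from 0.72 to 0.82 with Cilp and ranked 42 to 208. The pattern of Cilp2 rested less on that array. Its closest genes were Meox2 (r = 0.91), Sema3a, a guidance signal (0.90), Setbp1 (0.88), Col15a1, a basement membrane zone collagen (0.87), and Dpysl3 (0.86), and all 5 remained the first 5 without NP cKO replicate 4. Between the members themselves, the correlation of deviations was 0.81 for Prg4 and Cilp, 0.57 for Prg4 and Cilp2 and 0.59 for Cilp and Cilp2, and 0.52, 0.49 and 0.50 without that array.

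Genes around lubricin and the Cilp proteins were read from 7 lists. Among 12 genes of the superficial zone and of lubrication, none passed with genotype in either tissue. In the NP 10 of 12 were higher in cKO by mean (median 0.51, against 0 over all probe sets, of which 50% were higher), with Clu, which encodes the chaperone clusterin, at 1.71 (SE 0.50, limma adjusted p = 0.475) and Abi3bp at 2.33 (SE 1.17, limma adjusted p = 1). The list mean was 9.18 in NP cKO replicate 4 and 7.78 to 7.96 in the other NP cKO arrays, against 7.33 to 7.76 in NP CTR. In the AF 6 of 12 were higher by mean (median 0.03), with Has2, a hyaluronan synthase, at -0.74 (SE 0.19, limma adjusted p = 0.162) and Cd44, the hyaluronan receptor to which lubricin also binds, at 1.65 (SE 0.49, limma adjusted p = 0.236). Between the control tissues 9 of 12 were lower in NP, as were 10.1% of all probe sets, and 1 was higher (median -2.53, against 0.04 over all). Among those lower in NP were Clu (-5.04, SE 0.50), Abi3bp (-6.70, SE 1.17) and Creb5, a factor that drives Prg4 in superficial chondrocytes (-2.13, SE 0.37, limma adjusted p = 5.1e-04), the last of these named after its value was seen.

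Of 7 lubricin receptors and proteases that can cleave it, none passed with genotype. In the AF all 7 were higher in cKO by mean (median 0.75, against -0.03 over all), and 5 had an unadjusted p under 0.05, as did 10.6% of all probe sets, with Cd44 and the neutrophil elastase gene Elane (2.66, SE 1.08, limma adjusted p = 0.401) in front. Elane is also among the neutrophil and marrow markers given above, which were higher on the same arrays. In the NP the smallest p belonged to the lysosomal protease gene Ctsb (0.44, SE 0.26) and to Cd44 (0.54, SE 0.49), each with an adjusted p of 1 in limma.

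TGF-beta induces lubricin in cartilage cells and is bound by CILP. Of 12 measured ligands, receptors and effectors, none passed with genotype. The ligand gene Tgfb1 was at 10.44 in NP cKO and 8.69 in NP CTR (difference 1.75, SE 0.46, limma adjusted p = 0.348), and the repressor gene Skil differed by 0.78 (SE 0.50, limma adjusted p = 1). In the AF, Ltbp1, which holds latent TGF-beta in the matrix, differed by 0.93 (SE 0.30, limma adjusted p = 0.283) and the inhibitor gene Smad7 by 0.53 (SE 0.19, limma adjusted p = 0.339). In controls 5 of the 12 were lower in NP (10.1% of all probe sets were) and 1 was higher. Tgfb1 was lower in NP by mean, at 8.69, against 13.13 in AF (-4.44, SE 0.46, limma adjusted p = 2.2e-06), while Ltbp1 was higher in NP (1.33, SE 0.30, limma adjusted p = 0.00387).

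CILP can also dampen IGF1 signalling, and no gene of the 9 in the IGF list passed with genotype. In the AF the binding protein gene Igfbp5 was at 12.41 in cKO and 10.91 in CTR (1.49, SE 0.58, limma adjusted p = 0.375) and the receptor gene Igf1r differed by 0.47 (SE 0.22). In the NP, Igf1r differed by 0.22 (SE 0.22) and the ligand gene Igf2 by 0.21 (SE 0.28). In controls 5 of the 9 were lower in NP (10.1% of all probe sets), among them Igfbp5 (-5.09, SE 0.58) and Igf2 (-2.40, SE 0.28), and Igf1r was higher in NP (1.02, SE 0.22, limma adjusted p = 0.00273). The 4 proprotein convertases, the enzyme family that cuts the CILP precursor, showed no call with genotype. Pcsk5 differed by 1.56 in the AF (SE 0.79) and 0.56 in the NP (SE 0.79), Furin by -0.40 in the AF (SE 0.22), and Pcsk7 by 0.18 in the NP (SE 0.27). In controls Furin was lower in NP, at 9.51, against 11.16 in AF (limma adjusted p = 3.2e-05), and so was Pcsk6, at 6.25, against 12 in AF (limma adjusted p = 2.9e-07), a gene named after its value was seen.

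Of 8 FOXO and YAP regulators, factors that act on Prg4 in cartilage and their targets, none passed with genotype. The smallest p were those of Foxo3 (0.53, SE 0.23) and Ccn2 (1.53, SE 0.73) in the AF, and of Foxo4 (0.48, SE 0.29) and Yap1 (-0.33, SE 0.28) in the NP. In controls 2 of the 8 were lower in NP (10.1% of all probe sets), the target gene Ccn2 (-4.07, SE 0.73) among them, and the median of -0.05 was near that of all probe sets. The 14 cartilage matrix genes had mostly negative differences in the AF, with a median of -1.35 and 10 of 14 lower in cKO by mean. The list mean was 11.10, 11.06, 11.42 and 10.64 in AF cKO replicates 1 to 4, against 13.58, 12.75, 11.34 and 11.87 in AF CTR, so AF CTR replicate 3 lay below AF cKO replicate 3. The mean of 7 hypertrophic cartilage markers was 10.14 to 11.83 in AF cKO, against 14.04 in AF CTR replicate 1 and 9.06 to 11.52 in the other AF CTR arrays, and its part in the result was not tested. Acan fell by 2.0 (SE 0.34, limma adjusted p = 0.0218) and Ucma, a small matrix protein gene, fell by 3.48 (SE 0.62, limma adjusted p = 0.0269). In the NP the median was -0.27 and none passed, with Hapln1, the link protein gene, at -1.83 (SE 0.42, limma adjusted p = 0.188) and Acan at -1.14 (SE 0.34, limma adjusted p = 0.513). Between the control tissues 10 of the 14 were lower in NP (10.1% of all probe sets) and 1 was higher, with a median of -2.12.

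**Figure D5:**
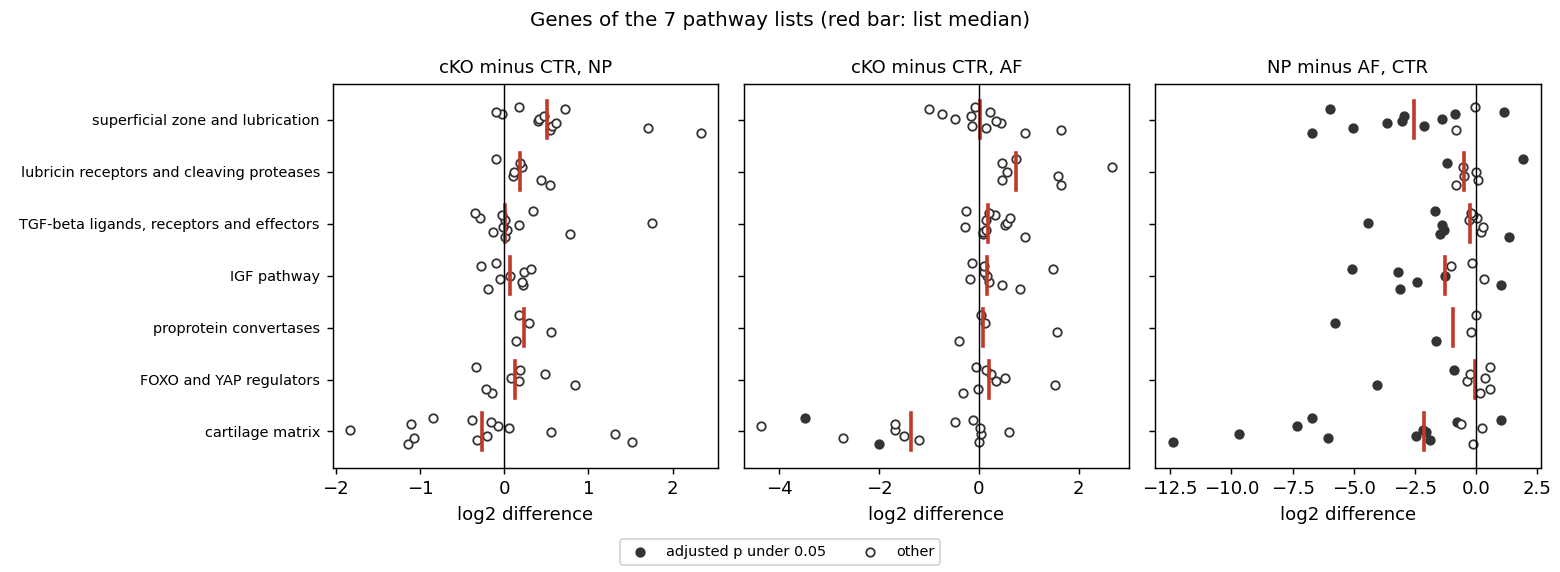
Log2 differences of the genes of 7 pathway lists for cKO minus CTR in the NP, the same in the AF, and NP minus AF in controls, with 1 point per gene, filled at an adjusted p under 0.05, and a red bar at each list median. With genotype only Acan and Ucma in the AF are filled, whereas most genes of the superficial zone, IGF and cartilage matrix lists are filled between the tissues.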

How the data were processed

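Per the labels, RNA was labelled with biotin using the GeneChip WT Plus kit and run on 1-colour Affymetrix arrays. The authors deposited log2 signals from signal space transformation RMA (sst-RMA), per the sample labels, and the Transcriptome Analysis Console is named in the submitters' processing notes. The sources used here give neither its version nor a genome build. There are 28846 probe sets in the table, of which 6640 controls were left out and 22206 tested, 19572 of them with 1 symbol in the platform annotation, 2634 with none and 0 with several. All 3 genes pass a filter that asks for a mean over all arrays above background, which their high AF signals ensure.

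For all 16 arrays a model of 4 group means was fitted to the deposited log2 values (limma 3.58.1, R 4.3.3), with default moderation and Benjamini-Hochberg adjustment over 22206 probe sets at 0.05. All groups share 1 estimate of the spread, so NP cKO, with the widest spread for Prg4 and Cilp, has the same SE as the tighter groups. The fit was tested on simulated data. NP and AF of the same code in the titles come from 1 animal: their deviations correlated with r from -0.293 to 0.348 over 8 pairs, 3 of them over 0.1. A fit with each animal as a block was among the alternatives. Replicate numbers do not link cKO with CTR mice.

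Genes named are the 3 members, Sox9, the 5 genes with the highest correlation by each of 2 measures, and per pathway list those past the threshold with genotype or otherwise the 2 with the smallest p. Other settings tried were a filter on dim probe sets, median centring, 1 probe set a gene, quantile normalization applied again, an intensity trend, array weights, the 8 arrays of a comparison alone, the thresholds of the labels, blocks, and leaving out each array. The members and lists were chosen with earlier results of these data known. Some genes of the lists were not analysed here.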

Additional observations from a re-analysis of the deposited data

Results flagged for a closer look

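In groups of 4 arrays, the gap of the outermost array to its neighbour was set against the group's range, for 76 groups of values (the 3 genes, Sox9 and the 15 list means). In 3 groups it passed Dixon's critical value for 4 samples, where chance alone gives about 1 in 20.

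Cilp in NP CTR had replicate 3 far from the others, at 7.87, with the next array at 5.89 (ratio 0.848). The superficial zone and lubrication list in NP cKO had replicate 4 at 9.18, with the next array at 7.96 (ratio 0.873). The IGF pathway list in AF cKO had replicate 3 at 10.36, with the next array at 9.94 (ratio 0.885). The NP cKO values of Prg4 and Cilp did not pass this rule, since their other 3 arrays are spread as well.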

How the results depend on the processing

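Under all alternatives run, the 6 differences between NP and AF kept their sign and their call (123 of 123 values, adjusted p from 3.1e-08 to 0.0035). The genotype estimates of the 3 genes stayed past no adjusted threshold (adjusted p from 0.156 to 1), and 119 of 120 were positive, the exception being Cilp2 in the AF at -0.02. At the thresholds of the labels Prg4 passed, at 3.14 in the NP and 2.22 in the AF, with the shared spread and no array weights. In the replicate block fits, Prg4 in the NP was at 3.14 with the number as a fixed block (limma adjusted p = 0.495) and with the animal as a random block (limma adjusted p = 0.598), and neither block changed a call of the 3 genes. Since replicate numbers do not link cKO with CTR mice, the fixed block is no check of the genotype estimates. No gene has another probe set, so that alternative gave no value.

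The counts of changed probe sets moved more. In the NP, 27 became 10 to 19 without 1 array (10 without NP CTR replicate 3) and 262 at the thresholds of the labels. In the AF, 22 became 12 to 142 without 1 array (142 without CTR replicate 1, 112 without cKO replicate 4, 58 without CTR replicate 3, 12 without cKO replicate 1 or 2), 37 after a second quantile normalization, 8 with the 8 AF arrays alone, and 774 at the thresholds of the labels. It became 34 without AF cKO replicates 2 and 4, and 112 without AF CTR replicate 1 and AF cKO replicate 3, both settings chosen after seeing the data. For the difference of the changes, 0 became 0 to 3 without 1 array (3 without AF CTR replicate 3), 1 under quantile normalization and under both added settings, and 977 at the thresholds of the labels. For NP against AF, 4462 in CTR and 5754 in cKO became 2764 and 3119 with the filter on dim probe sets, which tests fewer of them (in cKO 1246 higher and 1873 lower, against 2954 and 2800), 5062 and 6169 with median centring (in cKO 3729 higher and 2440 lower), and 3800 in cKO without AF cKO replicates 2 and 4. The cause of the other shifts was not tested.

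The unequal changes without 1 array ranged in the NP from 0.59 to 1.69 (Prg4 minus Cilp), 1.57 to 3.51 (Prg4 minus Cilp2) and 0.47 to 2.34 (Cilp minus Cilp2). In the AF they ranged from -0.74 to 0.50 (Prg4 minus Cilp), 1.43 to 2.21 (Prg4 minus Cilp2) and 1.46 to 2.20 (Cilp minus Cilp2). The outcome was unchanged in 8 of 8 leave-outs for Cilp minus Cilp2 in the NP and Prg4 minus Cilp in the AF. For each other pair it was unchanged in 7 of 8. The remaining leave-out (NP cKO 3, NP cKO 1, AF cKO 1 and AF cKO 4, in the order above) gave an unadjusted exact p of 0.0286. That is the smallest p this test allows with 1 array left out. Dim NP signals limit the Cilp and Cilp2 levels there, and the Prg4 level in NP CTR.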

Other observations

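For Prg4 and Cilp, some NP and AF arrays of the same animal deviated from their group means in opposite directions, and others shared a direction. For Cilp2 the directions were opposite in every animal but control animal 2, at 0.03 in the NP and 0.72 in the AF. Deviations within a group balance out, so these pairs are not independent. The share over all probe sets is not given. In cKO animal 1 the Prg4 deviation was -2.70 in the NP and -1.36 in the AF, the lowest of each group. In control animal 3 it was 0.72 in the NP and 0.63 in the AF, and in cKO animal 3 the Cilp deviation was 0.67 in the NP and 1.18 in the AF. In cKO animal 4 the deviations went apart, with Prg4 and Cilp at 4.31 and 4.18 in the NP, and at -0.13 and -2.30 in the AF. The Cilp2 deviations of cKO animal 4 were 0.70 in the NP and -0.96 in the AF, and the Cilp deviations of control animal 3 were 1.59 in the NP and -0.24 in the AF. In control animal 2 the NP and AF deviations were -0.56 and 1.28 for Prg4, and -0.75 and 1.22 for Cilp. In cKO animal 2 they were -0.63 and 1.02 for Prg4, and -2.29 and 0.94 for Cilp.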
